A study of Arabidopsis thaliana with 26 samples.

Results

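Leaves of pif5 plants that had been covered for 3 days were compared with Col-0 leaves covered for the same time. The comparison rests on 6 of the 26 arrays of the series, 3 per genotype, and on all 26676 rows of the deposited table. A row is a probe set, cited by its identifier in that table. The pif5 plants carry the allele pif5-621, given as a PIF5 knockout, and Col-0 is the wild-type accession used as the control. All plants grew at 22 °C with 8 h of light a day, and foil-coated covers were put on 2 fully grown leaves per plant, with all other leaves kept in the daily light cycle. Leaf blades were taken at noon in light (day 0) and after 1, 3, 6 and, for pif5 alone, 12 days of cover. A single mutant line was used, and the labels do not say whether replicates came from separate plants, so the p-values rest on a spread between samples that could be technical. No group kept in light for 3 days was analysed here, so darkening and elapsed time cannot be told apart, and in whole leaf blades fewer cells of a type cannot be told apart from less RNA per cell.

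PIF5 is a basic helix-loop-helix transcription factor that light-activated phytochrome marks for breakdown, so that it builds up in darkness. Together with its relative PIF4 it is known to promote leaf senescence in the dark, acting upstream of ethylene, abscisic acid and NAC-type senescence regulators. A single covered leaf on a lit plant senesces quickly: chlorophyll and photosynthetic proteins are broken down and their nitrogen is exported to the rest of the plant. During that programme the leaf changes the level of a large part of its transcripts.

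No row is given a gene name. The names that the platform annotation gives were set against levels in the Col-0 arrays in light, which are not part of the day 3 comparison. Of 48 nuclear genes for photosystems and antenna proteins, which are among the most abundant leaf transcripts, 8 had a listed row. Their median level stood at percentile 66.1 of all rows, with a range from 8.33 to 89.1. Of 16 Calvin-Benson cycle genes 3 had a row, with a median at percentile 92.8. Both lists had to reach percentile 90 before names were used, so names, promoters and pathway lists are not reported. The level of PIF5 and cell type markers rest on the same names and were not used, so the genotype and tissue labels are taken as given.

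The 6 arrays had medians of 4.26 to 4.3 on the log2 scale. Correlations over rows were 0.981 to 0.985 between pif5 arrays, 0.984 to 0.987 between Col-0 arrays and 0.944 to 0.968 between the genotypes. Each array thus lay nearer to both arrays of its own group than to any array of the other. The pif5 arrays were not equally far from Col-0. Replicate 1 differed from the 3 Col-0 arrays by a root mean square of 0.515, 0.527 and 0.496 on the log2 scale. For replicate 2 these values were 0.462, 0.462 and 0.436, and for replicate 3 they were 0.434, 0.430 and 0.400. Replicate 1 was thus the farthest and replicate 3 the nearest.

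At day 3 the genotypes differed at 4889 rows, 18.3% of all rows, by limma with a Benjamini-Hochberg adjusted p under 0.05. Of these, 2276 were higher in pif5 (8.53%) and 2613 lower (9.8%). Most differences were small. The median size among called rows was 0.61 on the log2 scale, and 2242 of them, or 45.9%, stayed under 1.5-fold. At least 2-fold differences numbered 914 (3.43%), with 432 higher (1.62%) and 482 lower (1.81%) in pif5. Under quantile normalization both balances turned, to 2470 higher and 2406 lower calls, and to 479 higher and 450 lower at 2-fold. At least 4-fold differences numbered 102, with 40 higher and 62 lower, and at least 8-fold differences 12, with 3 higher and 9 lower. The smallest size that was called was 0.26 and the largest that was not was 1.1, both on the log2 scale. The groups did not overlap at 4647 of the called rows (17.4% of all rows), while 30.1% of all rows had groups that did not overlap. Over all rows the median difference, pif5 minus Col-0, was -0.018, and the middle 50% of rows lay between -0.18 and 0.15.

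Called rows were mostly well expressed. With rows sorted by their mean over all 26 arrays into 5 bins of equal size, the called share was 1.5% in bin 1, 3.43% in bin 2, 17.7% in bin 3, 31% in bin 4 and 38% in bin 5. Bins 1 and 2 lie below 3.86 on the log2 scale, the dim end of the table, and bin 5 spans 6.15 to 13.12. No measure of background was used, so where 1 group lies that low the arrays may not show its whole change, and the difference may be only a lower bound. The median SD between replicates was 0.134 in both genotypes in bin 1, and in bin 5 it was 0.163 in pif5 and 0.138 in Col-0. The median size of called differences was 0.41 in bin 1 and 0.63 in bin 5. Only 7 of the 914 differences of at least 2-fold lay in bins 1 and 2.

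**Figure D1:**
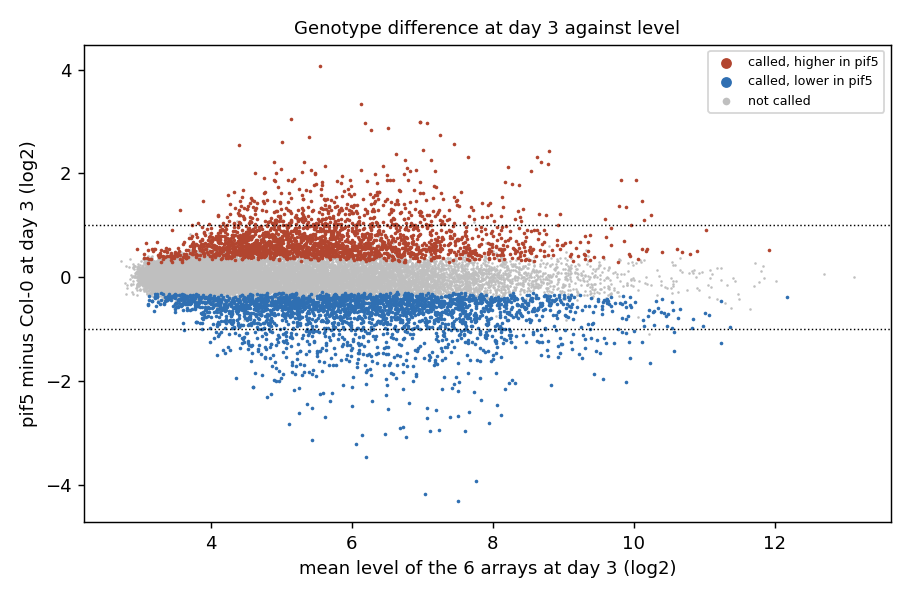
Each point is a row, with the mean level of the 6 day 3 arrays on the x axis (log2) and the difference pif5 minus Col-0 on the y axis (log2); the dotted lines mark 2-fold. The 2276 called rows that were higher in pif5 and the 2613 that were lower spread to 4.06 and -4.31, with few calls at the dim end.

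The 10 rows with the largest excess in pif5 were chosen on their day 3 levels, and none was called in light. A fall in Col-0 or a rise in pif5 by day 3 was thus largely fixed by that choice. All 10 were well expressed in light in both genotypes and had fallen in Col-0 by day 3, by 2.28 to 5.34 on the log2 scale. In pif5 the change from light was 0.24 to -2.57. Row 13527822 had levels of 7.98, 7.78 and 6.98 in the 3 pif5 arrays, against 3.4, 3.81 and 3.34 in Col-0. The 2 groups stood far apart, with the lowest pif5 array more than 3 log2 units above the highest Col-0 array. The measured difference was 4.06 ± 0.23 (SE) or 16.7-fold (limma adjusted p = 2.8e-12), the largest measured rise, and may be a lower bound since Col-0 lay below 3.86. In light the row stood at 9.23 in pif5 and 8.86 in Col-0, so that both genotypes had lost signal.

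Row 13528459 had levels of 7.97, 7.91 and 7.50 in pif5 and 4.29, 4.3 and 4.8 in Col-0, a difference of 3.33 ± 0.18 (SE; limma adjusted p = 1.1e-12). The pif5 mean was 7.79 at day 3 and 7.95 in light, a change of -0.15 with a limma adjusted p of 0.57. At day 12 the 2 pif5 arrays read 7.98 and 7.93. Col-0 had a mean of 4.46 at day 3 against 7.87 in light. Row 13351291 had another course. In pif5 it stood at 8.57 in light, 6.85 at day 1 and 8.47 at day 3, while in Col-0 it stood at 8.26, 5.46 and 5.48. Its arrays read 9.07, 8.07 and 8.28 in pif5 and 5.11, 4.96 and 6.36 in Col-0, where replicate 3 was the high one (difference 3.00 ± 0.30, SE; limma adjusted p = 2.6e-08).

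In 8 of the 10 largest rises replicate 1 was the highest pif5 array and replicate 3 the lowest, and 5 of these had wide spread in pif5, with SDs of 0.593 to 0.891. Row 13416852 read 9.45, 8.53 and 7.66 in pif5 and 5.17, 5.89 and 5.66 in Col-0. Row 13519611 read 8.28, 7.94 and 6.81 in pif5 and 4.87, 4.54 and 4.72 in Col-0. Row 13531040 read 8.37, 7.92 and 6.79 in pif5 and 4.93, 4.91 and 4.72 in Col-0. In the last 2 rows the SD was 0.77 and 0.816 in pif5 and 0.164 and 0.118 in Col-0, so the spread lay in pif5. Row 13414782, at 7.31, 6.75 and 5.93 in pif5 and 3.61, 3.70 and 3.53 in Col-0, and row 13418708, at 9.09, 8.40 and 7.91 in pif5 and 5.55, 4.95 and 5.94 in Col-0, followed the same order. The 5 differences were 2.84 to 3.05 on the log2 scale, with limma adjusted p-values from 2.9e-10 to 8.7e-08. The value of 3.05 belongs to row 13414782, with Col-0 below 3.86, and may be a lower bound.

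The remaining 2 rises were tighter. Row 13419284 read 8.16, 7.99 and 7.71 in pif5 and 4.92, 4.96 and 5.36 in Col-0, a difference of 2.87 ± 0.17 (SE; limma adjusted p = 5.6e-12). Row 13511848 read 8.96, 8.44 and 8.46 in pif5 and 5.63, 6.39 and 5.65 in Col-0, a difference of 2.73 ± 0.19 (SE; limma adjusted p = 4.2e-11). These 2 rows parted later. At day 6 the first differed by 4.58 and the second by 0.41, which did not pass (limma adjusted p = 0.10). The Col-0 level of the second was 5.89 at day 3 and 7.16 at day 6.

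**Figure D2:**
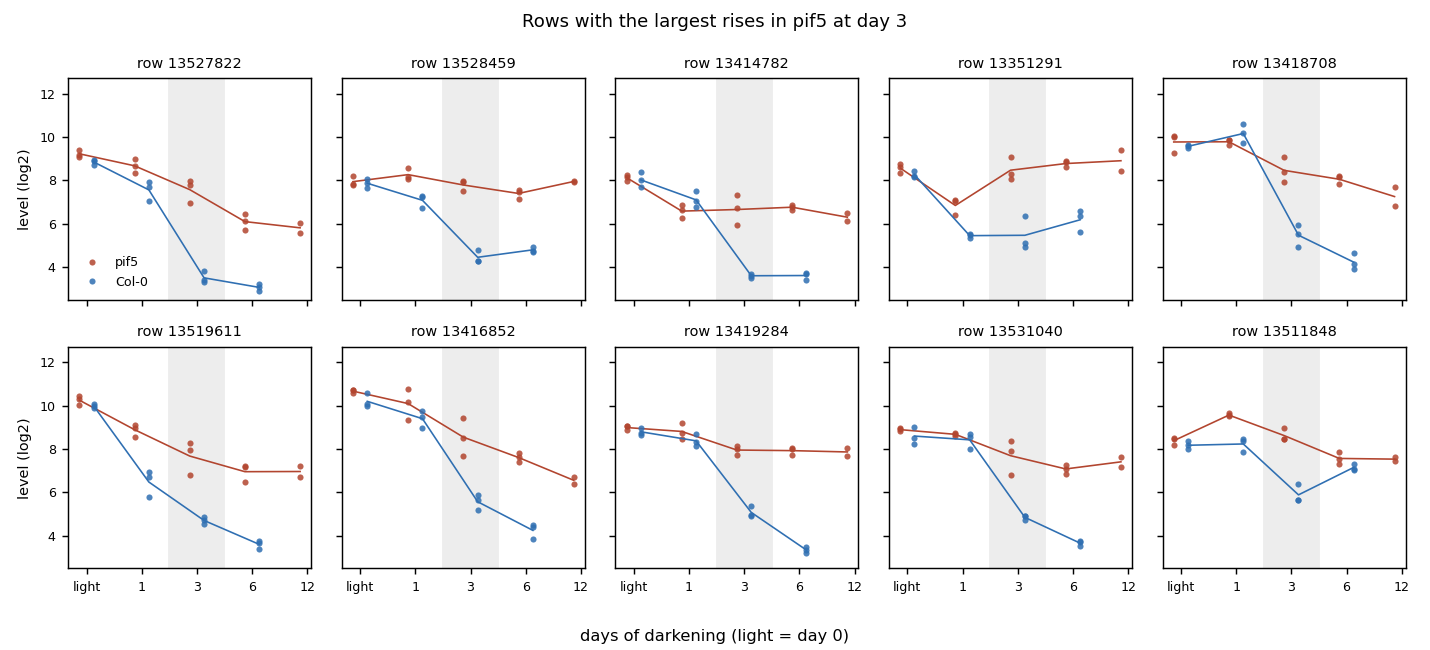
Levels (log2, y axis) of the 10 rows with the largest rises in pif5 at day 3, by days of darkening (x axis), with every array as a point, pif5 left of Col-0, and lines through the group means; the grey band marks day 3. In light no row is called and the largest mean difference is 0.469; at day 3 the pif5 points lie 2.73 to 4.06 above the Col-0 points on the mean.

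The rows with the largest deficit in pif5 mostly had low levels in light and had risen in Col-0 by day 3. They too were chosen on day 3 levels, and none was called in light. A rise in Col-0 or a fall in pif5 was thus largely fixed by that choice. In all but row 13482834 the means in light lay between 3.2 and 5.51 in both genotypes. Of the 10, 9 had risen in Col-0 by 3.31 to 6.01 on the log2 scale, and 5 of those had also risen in pif5, by 0.78 to 1.99. Row 13379640 had levels of 5.06, 5.42 and 5.56 in pif5 against 9.81, 9.53 and 9.62 in Col-0. Both groups were tight and far apart. The difference was -4.31 ± 0.26 (SE), which is 19.8-fold, the largest of either direction (limma adjusted p = 5.2e-12). In pif5 the change from light was -0.16, with a limma adjusted p of 0.69. In Col-0 the mean was 9.66 at day 3 and 5.43 in light.

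Row 13354496 read 5.39, 4.48 and 4.98 in pif5 and 9.51, 8.67 and 9.23 in Col-0, a difference of -4.19 ± 0.27 (SE; limma adjusted p = 2.3e-11). At day 1 the means were 4.39 in pif5 and 4.43 in Col-0. The genotype difference at day 3 minus that at day 1 was -4.15 (limma adjusted p = 1.8e-07). Row 13492813 read 4.85, 5.96 and 6.58 in pif5 and 9.85, 9.51 and 9.80 in Col-0. In pif5 it had risen over light by 1.99 (limma adjusted p = 0.0017), and in Col-0 by 6.01. The difference of -3.93 ± 0.49 (SE) had the widest error of the 20 rows (limma adjusted p = 9.6e-07).

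Rows 13489388, 13347171 and 13345677 had low levels in pif5 at day 3 and much higher ones in Col-0. Row 13489388 read 4.43, 4.55 and 4.41 in pif5 and 8.16, 7.81 and 7.81 in Col-0. Row 13347171 read 4.26, 4.67 and 4.4 in pif5 and 7.96, 7.49 and 7.54 in Col-0. Row 13345677 read 3.62, 4.05 and 3.93 in pif5 and 7.12, 6.84 and 7.03 in Col-0. The last of these was the lowest in pif5, with 1 array at 3.62, below 3.86, so its difference may be a lower bound in size. Over the 3 rows the differences were -3.13 to -3.47 (limma adjusted p from 8.3e-11 to 1.5e-08), and the change from light in pif5 was called at row 13347171 alone, at 0.78 (limma adjusted p = 0.011).

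Row 13506941 had parted sooner than most. It read 4.53, 4.90 and 4.45 in pif5 and 7.81, 7.32 and 7.87 in Col-0 at day 3, a difference of -3.04, after -2.72 at day 1. The change between these days was -0.32 and did not pass (limma adjusted p = 0.67). Row 13482834 was the only one of the 10 falls that was bright in light, at 8.63 in pif5 and 8.58 in Col-0. Both genotypes were lower at day 1, at 6.24 in pif5 and 6.49 in Col-0. At day 3 it read 4.49, 5.09 and 5.30 in pif5 and 7.98, 8.02 and 7.96 in Col-0, so that Col-0 was back near its level in light (change -0.60, limma adjusted p = 0.065) and pif5 was below it (change -3.67, limma adjusted p = 3.1e-12). Rows 13489690 and 13389914 completed the list, with differences of -3.08 and -2.98. Row 13489690 read 4.62, 5.01 and 6.06 in pif5 and 8.22, 8.59 and 8.12 in Col-0, and row 13389914 read 5.60, 6.38 and 6.35 in pif5 and 9.01, 9.01 and 9.24 in Col-0.

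**Figure D3:**
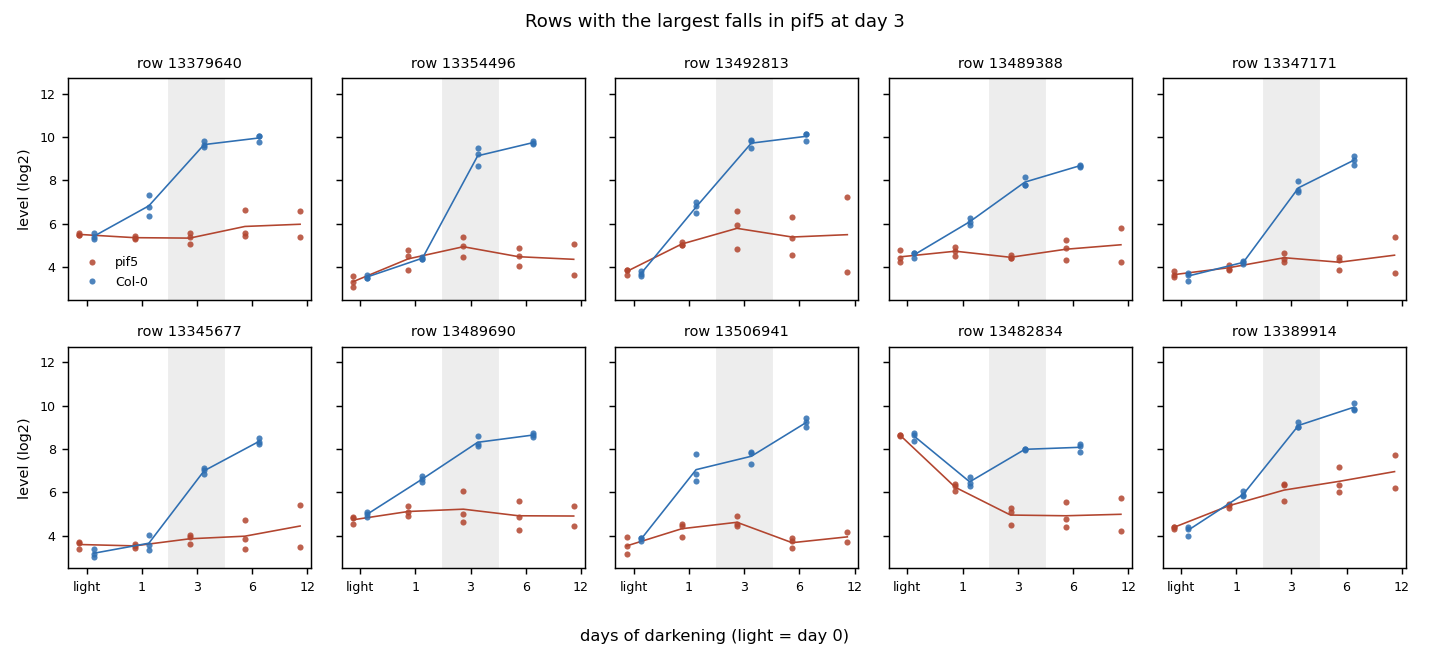
Levels (log2, y axis) of the 10 rows with the largest falls in pif5 at day 3, by days of darkening (x axis), with every array as a point, pif5 left of Col-0, and lines through the group means; the grey band marks day 3. At day 3 the pif5 means lie between 3.87 and 6.11 and the Col-0 means between 6.997 and 9.72.

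The same picture held for the at least 2-fold rows as sets. In the 432 that were higher in pif5, the median level at day 3 was 6.55 in pif5 and 5.18 in Col-0, and in light it had been 7.26 in pif5 and 7.17 in Col-0. In the 482 that were lower, the median level was 5.62 in pif5 and 7.16 in Col-0, and in light it had been 4.93 in both. The day 3 levels here chose the rows, and only the levels in light are apart from the choice.

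All changes against light use the day 3 arrays again, so they are given side by side and not as further evidence. Over the 2276 rows higher in pif5, the median change from light to day 3 was -0.285 in pif5 and -0.958 in Col-0. Of these rows 1049 fell and 495 rose in pif5, and 1706 fell and 167 rose in Col-0 (limma adjusted p under 0.05). Over the 2613 lower rows the median change was 0.11 in pif5 and 0.733 in Col-0, with 858 rises and 567 falls in pif5 and 1928 rises and 220 falls in Col-0. The shares of all rows that rose or fell from light by day 3 are not given here. These counts are therefore not read as a trait of the called rows. The difference in response itself passed at 2710 of all rows (10.2%), more positive in pif5 at 4.68% and more negative at 5.48%, a balance that turned under quantile normalization (1419 more positive, 1290 more negative). Among the called rows it passed in the same direction at 1159 of the higher ones and 1370 of the lower ones.

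To group rows without their day 3 levels, their course was taken from the Col-0 arrays in light, at day 1 and at day 6. The spread behind these class calls was estimated over all groups, so the day 3 arrays took part in it. Rows with a small spread may thus more easily enter a riser or faller class and also be called at day 3. Early risers and early fallers had changed at least 2-fold by day 1. Late risers and late fallers had not, and then changed at least 2-fold between days 1 and 6, and flat rows passed in none of the 3 comparisons. In 625 late risers the median difference at day 3 was -0.45, and 314 rows were lower and 20 higher in pif5. A median of 0.64 went with the 560 late fallers, of which 355 were higher and 7 lower in pif5. Called shares were 53.4% and 64.6% in these classes, against 18.3% over all rows. Classes that require a called change may hold fewer dim rows, and the flat class more. Called shares also rose with level, from 1.5% in bin 1 to 38% in bin 5, and classes were not compared at equal level.

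Rows that had already moved in Col-0 by day 1 differed as well, and less. In 1223 early risers the median difference was -0.33, with 517 rows lower and 115 higher in pif5 (51.7% called). In 1898 early fallers it was 0.27, with 676 rows higher and 119 lower (41.9% called). Among 11765 flat rows 484 were called, or 4.11%, and their median was -0.022. The early and late classes together held most of the large differences. Of the at least 2-fold rows higher in pif5, 44% were early fallers and 34% late fallers, classes that make up 7.12% and 2.1% of all rows. Of those lower in pif5, 41.5% were early risers and 29.7% late risers, which make up 4.58% and 2.34% of all rows.

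The late classes were also set out array by array. With the Col-0 mean at day 1 set to 0, the median level of the late risers was -0.0064, 0.092 and 0.094 in the 3 pif5 arrays, against 0.64, 0.61 and 0.58 in Col-0. For the late fallers the values were -0.265, -0.409 and -0.585 in pif5 and -1.04, -1.04 and -0.97 in Col-0, so that pif5 lay above Col-0. The Col-0 day 1 arrays behind the 0 took part in choosing all 4 of the early and late classes. For this reason the place of 0 itself is not read. Within a row the same value is taken from all 6 arrays, but the median over rows can still change the genotype difference. Between group means of these array values it was -0.55 for the late risers and 0.597 for the late fallers. The medians of the row differences were -0.45 and 0.64. Neither class overlapped between the genotypes. An exact permutation test of the array values gave a two-sided p of 0.10 for both classes, the smallest that 3 against 3 arrays allow.

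The early classes were separated as well. The median of the early risers was -0.359, -0.22 and -0.204 in pif5 and 0.10, 0.19 and 0.070 in Col-0. The early fallers read 0.155, 0.073 and 0.0024 in pif5 and -0.15, -0.19 and -0.14 in Col-0. For both classes the exact permutation p was again 0.10, the smallest possible. The flat rows, with -0.026, 0.0011 and -0.0083 in pif5 and 0.0085, 0.020 and 0.0028 in Col-0, did not overlap either and gave the same p, so the sizes and not this p set the classes apart.

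**Figure D4:**
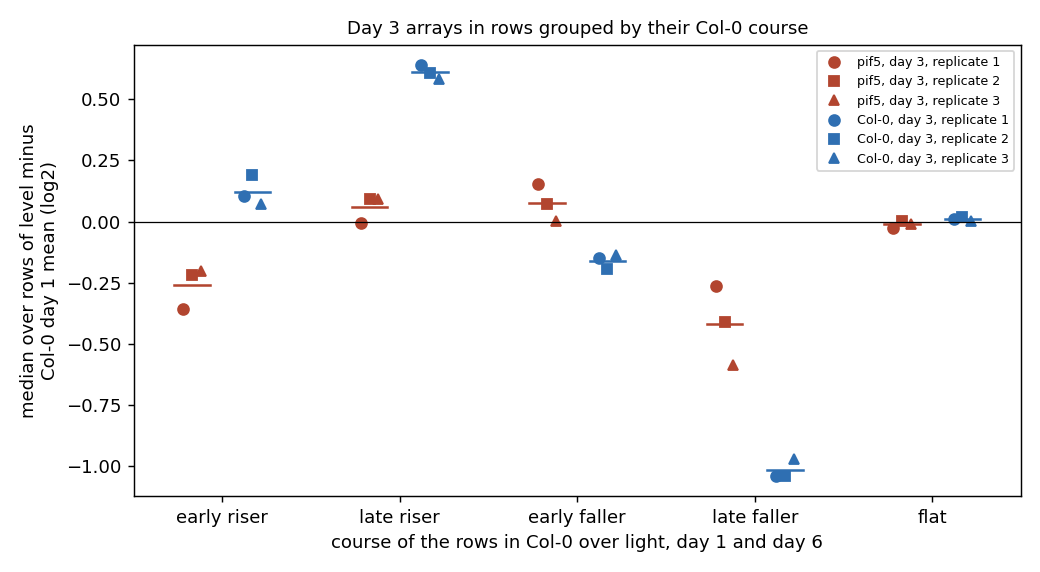
Median over the rows of a class of the level minus the Col-0 day 1 mean (log2, y axis) for each of the 6 day 3 arrays, by class of Col-0 course (x axis), with symbols for replicates and bars for group means. Late risers average 0.060 in pif5 and 0.61 in Col-0, late fallers -0.42 and -1.02, and flat rows -0.011 and 0.010.

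The order of the pif5 replicates recurred, though not in every row. Of the 10 largest falls, 4 had replicate 1 farthest from Col-0 and replicate 3 nearest, against 8 of the 10 largest rises. Replicate 1 was the farthest at 53.9% of all rows called higher and 51.9% of those called lower. Among the 432 rows at least 2-fold higher, replicate 1 was the pif5 array farthest from Col-0 at 318 (73.6%) and replicate 3 the nearest at 317 (73.4%). Among the 482 at least 2-fold lower rows, replicate 1 was the farthest at 312 (64.7%) and replicate 3 the nearest at 264 (54.8%). The Col-0 arrays were more even among these higher rows, with replicate 3 nearest to pif5 at 192 (44.4%). Among the lower ones Col-0 had an order as well. There its replicate 3 was nearest to pif5 at 230 (47.7%) and its replicate 1 farthest at 232 (48.1%). Without pif5 replicate 1, 3657 rows were called, and 3506 of the original calls were among them. Of the 4889 calls, 2769 passed with the same sign whichever of the 6 arrays was left out, and so did 884 of the 914 at least 2-fold ones. The cause of the array order was not tested.

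The day 3 comparison shares no array with those at days 1 and 6, and only the estimate of the spread is common to them. At day 6, 31.6% of all rows differed, 13.8% higher and 17.8% lower in pif5. Of the rows higher in pif5 at day 3, 1827 (80.3%) were also higher at day 6, and 36 were lower. Of the rows lower at day 3, 2137 (81.8%) were also lower at day 6, and 5 were higher. Seen from day 6, the shared rows were 49.7% of those higher and 45.1% of those lower. Among all 4889 called rows 95.8% had the same sign at day 6, whether called there or not. Over all 26676 rows the differences at days 3 and 6 had a Pearson correlation of 0.772 and a Spearman correlation of 0.634, as a description across rows, which share arrays within each day.

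Rows called at day 3 tended to differ more at day 6. The median over the rows higher in pif5 was 0.63 at day 3 and 0.76 at day 6, and over the lower rows it was -0.59 at day 3 and -0.75 at day 6, although choosing rows on day 3 favours larger values there. Of the called rows, the test of the change between days found 388 with a larger difference of the same sign at day 6 and 109 with a smaller or turned one. Over all rows 1282 passed this test (4.81%). Among the 10 largest rises and 10 largest falls, 4 passed: rows 13419284, 13347171 and 13506941 differed more at day 6, and row 13511848 less.

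At day 1 3.4% of all rows differed, 1.57% higher and 1.83% lower in pif5, and of the 4889 rows called at day 3, 421 (8.61%) had already differed in the same direction and 79 in the opposite one. Those in the same direction were 46.4% of the 908 day 1 calls. The opposite cases were uneven, with 69 rows lower at day 1 and higher at day 3 in pif5, and 10 the other way. The median difference over the rows higher at day 3 was 0.11 at day 1, and over the lower rows -0.13. Over all rows the differences at days 1 and 3 had a Pearson correlation of 0.285 and a Spearman correlation of 0.196. The genotype difference at day 3 was unlike that at day 1 at 7.47% of all rows, and among the called rows it was larger at day 3 at 1679 and smaller at 9. The called rows were chosen on the same day 3 arrays, which favours the larger of these counts, so their balance is not further evidence. Rows that differed in the same direction on all of days 1, 3 and 6 numbered 369.

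**Figure D5:**
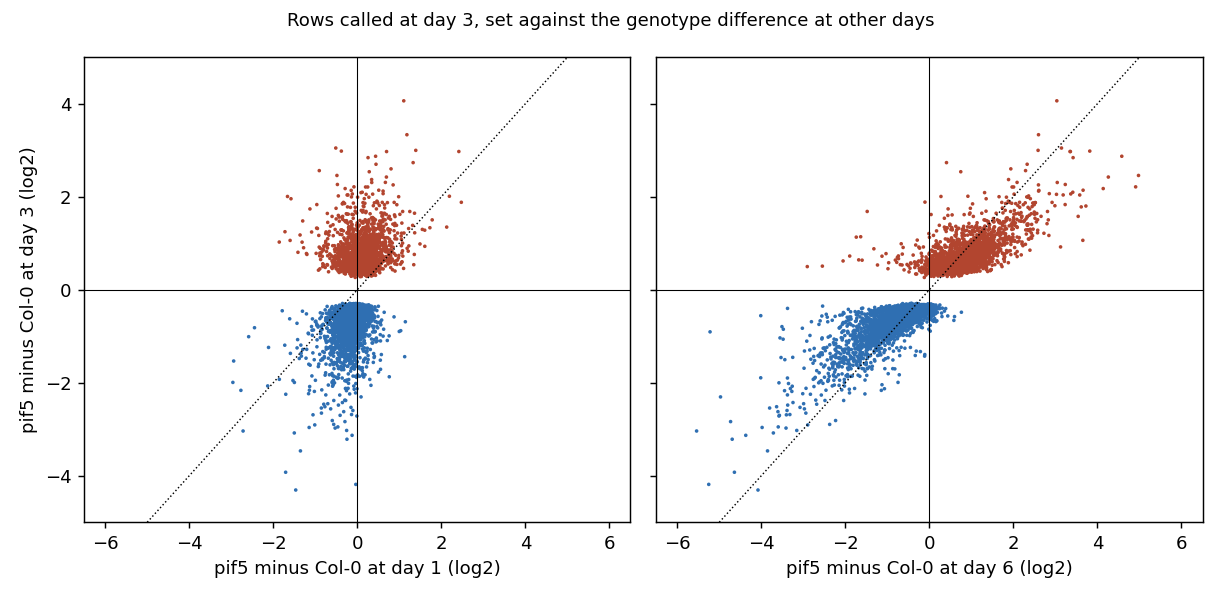
Each point is one of the 4889 rows called at day 3, with pif5 minus Col-0 at day 3 on the y axis and the same difference at day 1 (left) or day 6 (right) on the x axis, all log2; the dotted line marks equal values. At day 6 95.8% of the points keep their sign, while at day 1 69.9% do.

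In light 9 rows differed (0.0337%), and 7 of them also differed at day 3. Row 13513375 read 7.31, 7.25 and 7.34 in pif5 and 8.27, 8.29 and 8.27 in Col-0 at day 3, a difference of -0.97 after -0.63 in light. Row 13538159 differed by -0.69 at day 3 and -0.61 in light, and row 13353454 by 1.03 at day 3 and 0.61 in light. Those 3 rows had replicate SDs of 0.090 or less in either genotype at day 3, against differences of 0.69 to 1.03 in size. Their genotype difference passed at each of the 4 shared days, and its change from light to day 3 passed in none (limma adjusted p of 0.13, 0.81 and 0.066).

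The other rows that differed in light behaved in several ways. Rows 13351718 and 13536365 also differed at all 4 days, by 0.98 and -0.67 at day 3. Row 13492600 was higher in pif5 in light, at day 1 and at day 3, by 0.91 at day 3, and at day 6 it differed by 0.14 with a limma adjusted p of 0.50. Row 13388797 was lower in pif5 in light, a difference of -1.21, with 6.21 in pif5 and 7.42 in Col-0. At day 3 it read 3.57, 3.97 and 3.53 in pif5 and 6.99, 6.02 and 6.57 in Col-0, a difference of -2.84 (limma adjusted p = 2.3e-11), which may be a lower bound in size since the pif5 mean of 3.69 is that low. Rows 13469073 and 13458159 differed by -0.045 and 0.061 at day 3, with limma adjusted p-values of 0.91 and 0.79, and the first turned to 0.037 without Col-0 replicate 3.

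The brightest row with an at least 2-fold difference, by its mean over all arrays, was 13539435. It read 11.41, 10.88 and 10.62 in pif5 and 9.26, 9.03 and 9.01 in Col-0, a difference of 1.87 ± 0.17 (SE; limma adjusted p = 5.8e-09). In light it had stood at 12.18 in pif5 and 12.11 in Col-0. Row 13483726 had the largest measured difference among the called flat rows, and 1 array set much of its size. It read 7.73, 4.37 and 4.92 in pif5 and 2.90, 3.16 and 3.35 in Col-0. The difference was 2.54 ± 0.59 (SE; limma adjusted p = 0.0023), and 1.51 without pif5 replicate 1 (limma adjusted p = 0.041). With Col-0 in the dimmest bin, both values may be lower bounds.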

How the data were processed

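The authors deposited log2 values for 26676 probe sets on 26 arrays. Per the submitters' processing notes the R package oligo was used, with settings not given in the sources used here. Sample titles gave the groups and replicate numbers. No further scaling was applied.

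All 9 groups entered 1 limma fit (R 4.3.3, limma 3.58.1; lmFit, contrasts.fit, eBayes) with 17 residual degrees of freedom. Benjamini-Hochberg adjustment ran over all rows, with a threshold of 0.05. The rows given by identifier are the 10 largest rises and 10 largest falls with groups that do not overlap, the largest called row per course class, the brightest row with an at least 2-fold difference and all rows called in light. Gene names were to be used only if they fitted the levels in light, which they did not. The members, classes and lists were chosen with earlier results of these data known. On simulated arrays with 200 changed rows of 26676, the day 3 comparison found 96.7% of the rows changed by 1 log2 unit, 100% of those changed by 2, and 16 unchanged rows. Real rows are correlated and simulated ones were not, so such rates may differ here. Far fewer rows were changed in the simulation than were called here, and none by less than 1 log2 unit. It thus gives no rate for most of the calls, whose median size was 0.61. Alternatives were another scaling, a filter on dim rows, the compared groups alone, a trended robust prior, array weights, a replicate block and leaving out each array. The number of arrays limits the precision.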

Additional observations from a re-analysis of the deposited data

Results flagged for a closer look

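Effects that differed between days or genotypes by the test of the difference itself were as follows, and their causes were not tested. The response to 3 days of darkening differed between pif5 and Col-0 at 2710 rows (10.2% of all rows). The genotype difference at day 3 was unlike that at day 1 at 1992 rows (7.47%), and the difference at day 6 was unlike that at day 3 at 1282 rows (4.81%). Of the 31 rows chosen by rule, 7 passed the last of these tests. Many of the 31 were chosen on their day 3 difference, which enters that test, so the 7 are not read as a share. The genotype difference at day 6 minus that at day 3, on the log2 scale, was 1.71 at row 13419284, 1.22 at row 13351718, -0.778 at row 13492600, -1.48 at row 13347171, -1.89 at row 13388797, -2.33 at row 13511848 and -2.5 at row 13506941.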

How the results depend on the processing

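Alternatives were run for the counts, the class medians and the 31 rows chosen by rule, and no called row or class median among these changed direction. Row 13483726 was the only called row given by rule to move by over 1.5 times (1.51 without pif5 replicate 1). Each count of calls stayed within 1.5 times the count reported. With 1 array left out, day 3 calls numbered 3657 to 4644, and at least 2-fold differences 769 to 1085. The response test then gave 1968 to 2875, day 6 against day 3 gave 957 to 1434, and day 3 against day 1 gave 1440 to 2148. In the compared groups alone 4140 rows differed at day 3. The excess of lower over higher calls depended on the scaling: higher calls were 46.6% as deposited, 50.7% with quantile normalization and 41.7% with arrays centred on their medians. With centring the response test gave 1186 more positive and 1551 more negative rows. Among class medians, the early risers moved to -0.225 with quantile normalization. Centring moved the flat rows to -0.0432 and the rows in no class to -0.0627. Leaving out dim rows moved the late risers to -0.633 and the flat rows to -0.0395. With the replicate number as a block, 5060 rows differed at day 3. At day 3, deviations from the group means of arrays of the same number had correlations of 0.085, 0.035 and 0.020 over rows. For arrays of different numbers they were -0.079 to 0.050. With 3 arrays per group, these small values cannot show whether the numbers pair the samples.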

Other observations

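The rows here were chosen after their values were seen, as extremes of their kind. Some rows turned round between days. Row 13496775 stood at 7.90 in pif5 and 9.56 in Col-0 at day 1, and at 5.93 in pif5 and 3.93 in Col-0 at day 3. In light it had stood at 5.71 in pif5 and 4.90 in Col-0, so that both genotypes were highest at day 1. Row 13343205 was higher in pif5 by 1.68 at day 3 and lower by a difference of -1.48 at day 6, with Col-0 means of 3.61 at day 3 and 5.46 at day 6. Other rows differed little at day 3 and much more at day 6. Row 13454993 read 4.03, 3.66 and 3.85 in pif5 and 4.57, 4.81 and 4.88 in Col-0 at day 3, a difference of -0.91 that became -5.22 at day 6. Row 13473409 went the same way, with -0.56 at day 3 and -4.01 at day 6. At day 3 pif5 had means of 3.85 in row 13454993 and 3.54 in row 13473409. These lie below 3.86, as does the Col-0 mean of 3.61 in row 13343205. The day 3 differences of these rows may therefore be lower bounds in size. Row 13334833 ran against the general order, since its difference was -2.77 at day 1, -2.16 at day 3 and -1.14 at day 6, with pif5 approaching Col-0. In row 13542758 the difference at day 3 (-2.04) was larger in size than at day 1 (-0.57) and at day 6 (-1.13).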
